A study of Mus musculus with 2 samples.

Results

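The squares described here are the lymphocyte-rich squares, the top 10% by score, of 1 mouse intestinal section, in the spatial transcriptome labelled DPF2 knockout. The section was divided into squares with a side of 20 position units, counts of all barcodes in a square were summed, and the 2149 squares with 5000 or more counts were kept of 2194. Each square was scored by the counts of 6 genes as a share of all its counts. The genes are Gzma and Gzmb, serine proteases of cytotoxic granules, Cd3g and Cd3e, chains of the T cell receptor complex, Cd7, a surface protein of T and natural killer cells, and Ccl5, a chemokine made by cytotoxic lymphocytes. The 215 squares with the highest scores are the members, and the 1934 others are called the remaining squares. A square holds a median of 45 barcodes and can hold several cell types, so a member is a small region and not a cell.

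Intraepithelial lymphocytes sit between the epithelial cells of the gut, most of them above the basement membrane of the villi. Many carry CD8 and either an alpha-beta or a gamma-delta T cell receptor, are loaded with granzymes, and depend on interleukin 15 presented by the epithelium. In mice, butyrophilin-like proteins of enterocytes select and maintain the gamma-delta cells, and thymus leukaemia antigen on enterocytes binds CD8 alpha homodimers.

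The study asks about DPF2, a subunit of the BAF chromatin remodelling complex, in radiation injury of the intestine. It holds 1 section from WT mice and 1 from DPF2 KO mice, both given 10 Gy of X-rays, cut at 10 µm from fresh frozen intestine. The sources used here do not give the age or number of the mice, the gut segment, when after irradiation it was taken, or which part of Dpf2 was deleted in which cells, and neither genotype has an unirradiated section. The sections hold 89754886 counts in 88056 barcodes (labelled knockout) and 39824941 counts in 50970 barcodes (labelled wild type). Dpf2 itself stood at 26.0 CPM (counts per 1000000 counts) in the section labelled knockout and 23.6 in that labelled wild type. It was thus not lower under the knockout label, and the sections are named by their labels only. With 1 section per genotype no difference between genotypes can be tested, squares of a section are not replicates, and no p-value is given.

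The members hold 9232570 counts, 10.3% of those in kept squares, and the remaining squares hold 80397743. Members were about as deep as the rest, with a lowest total of 5382, a median of 41819 and a highest of 97939 counts per square against a median of 40534. The score was thin in counts: the 6 genes gave 1885 counts in the members, from 1 to 31 per square with a median of 8, and 30 members rested on fewer than 5. In a remaining square the median was 2 and the highest 12, and 377 had none. The last square inside the threshold scored 146.3 CPM and the first outside it 145.9, so the border between members and others is not a gap. The member median was 182 CPM, against 49.3 in the remaining squares. These values chose the members and are a description.

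All 6 genes were present among the members, with Gzma in 206 squares, Ccl5 in 165, Cd3g in 135, Gzmb in 110, Cd3e in 76 and Cd7 in 69. Of the 215 members, 177 held 3 or more of the 6 genes and 11 held all 6. Gzma alone gave 923 of the 1885 counts. The square with the highest score, 929 CPM, was the shallowest of all members and rested on 5 counts, while the square with the most counts of the 6 genes, 31, scored 427 CPM with 72525 counts in all.

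**Figure D1:**
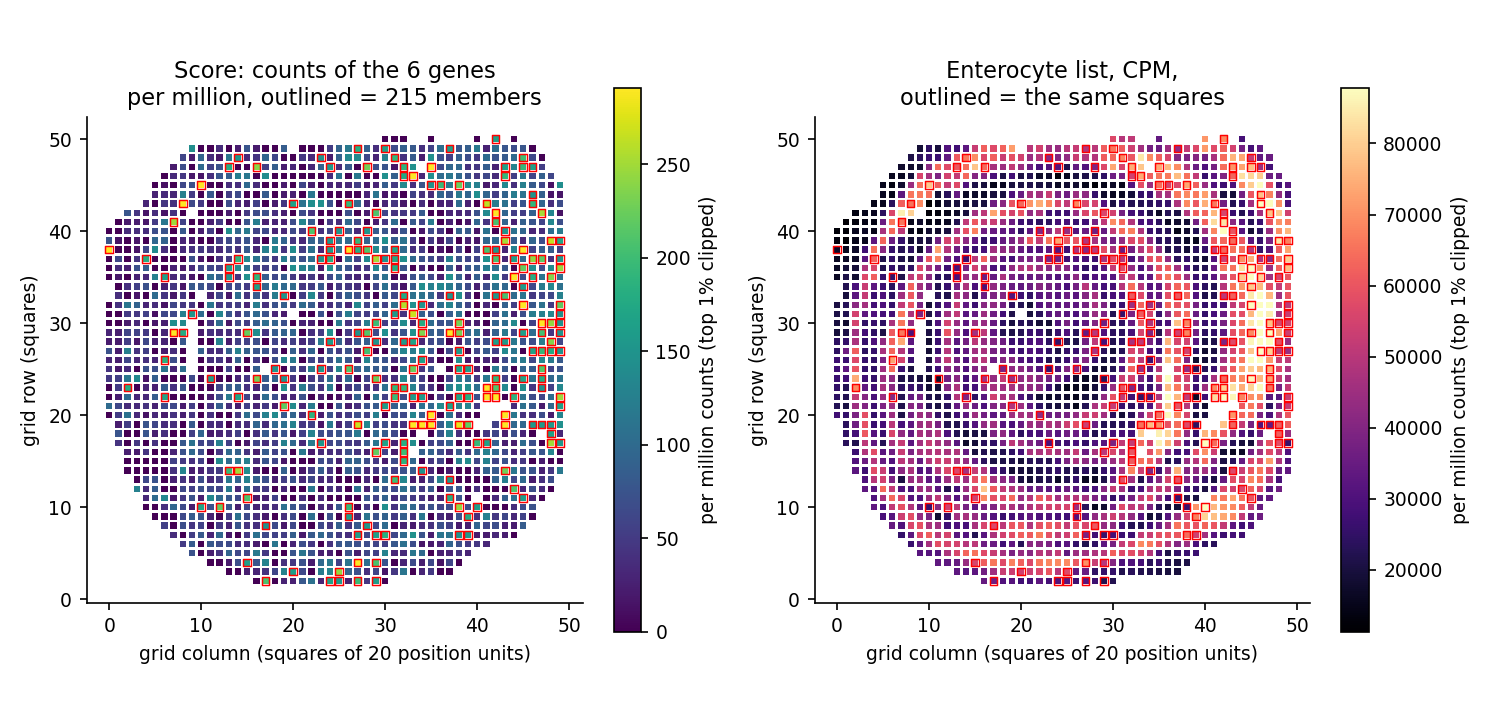
Maps of the 2149 kept squares of the section labelled knockout on their grid, coloured by the score (left, counts of the 6 genes, CPM) and by the summed enterocyte list (right, CPM), with the 215 members outlined in red. Members lie scattered in small groups, denser at higher column numbers, and many sit on the bright, enterocyte-rich bands.

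Members were unevenly spread. When the kept squares were divided by position into 4 parts of about equal size, parts 1 and 2 (low column numbers) held 24 and 29 members, and parts 3 and 4 held 77 and 85. As shares of the kept squares of each part these were 4.37%, 5.36%, 14.4% and 16.2%. Of 824 squares that share a side with a member, counted once for each member they touch, 18.7% (95% interval 16.1 to 21.5, exact binomial) were members themselves, against 10.0% of all kept squares. A pair of adjoining members enters from both sides, so the interval treats dependent counts as independent. The 10.0% is a share of the whole section and does not allow for the uneven parts. The members formed 139 patches, of which 95 were single squares and the largest 7 squares, so most patches were a single square.

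Few genes were clearly higher in the members and many were lower. Ratios of CPM, members over remaining squares, were taken for the 14841 genes outside the score with 100 or more counts. Of these, 240 (1.62%) were at least 1.5-fold higher and 2058 (13.9%) at least 1.5-fold lower, around a median log2 ratio of -0.16. Among squares whose enterocyte share was at or above the section's median, called enterocyte-rich below, the counts were 117 higher and 269 lower. In each of the 4 parts taken alone, 116 of the 240 were above the remaining squares of that part and 1254 of the 2058 below them. At a 2-fold limit the counts were 27 (0.182%) higher and 611 (4.12%) lower. Intervals after log2 ratios below are exact binomial 95% intervals and cover counting error only. Because values are shares of a square's RNA, fewer cells of a type and less RNA per cell cannot be told apart.

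The highest ratios outside the score belonged to other genes of cytotoxic T cells. Among genes with 200 or more counts, and leaving out predicted and ribosomal protein genes, the first 5 by ratio were Klrd1, Cd8a, Tcrg-C1, Tcrg-C2 and Trbc2. Klrd1 (chr6:129588092-129598775), the CD94 chain of a lectin-like receptor of cytotoxic cells, had 92 counts in members and 329 in the rest, 9.96 against 4.09 CPM, a log2 ratio of 1.28 (0.93 to 1.62). In parts 1 to 4 it stood at 4.08, 4.72, 10.1 and 12.2 CPM in members and at 3.83, 3.79, 4.02 and 4.69 in the remaining squares. Members were thus higher in every part, by little in the first 2 parts, and the ranges over parts overlapped. With a score of only Cd3g and Cd3e, Klrd1 stood at a log2 ratio of 0.72.

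Cd8a (chr6:71373427-71379171), the CD8 chain found on most T cells of the epithelium, had 75 and 269 counts, 8.12 against 3.35 CPM, a log2 ratio of 1.28 (0.89 to 1.65). Over parts 1 to 4 it stood at 6.12, 1.18, 7.75 and 10.1 CPM in members and at 3.3, 2.38, 3.56 and 4.13 in the rest, so part 2 ran the other way. Cd4, the co-receptor of helper T cells, had 15 and 113 counts and a log2 ratio of 0.21 (-0.68 to 0.99), and its difference was not detectable at this depth. A count of Cd8a was found in 57 of 215 members (26.5%) and 11.5% of the remaining squares. For Cd4 this was 13 members (6.05%) and 5.64% of the rest. With a score of only Cd3g and Cd3e, Cd8a stood at a log2 ratio of 0.30 and Cd4 at 0.40.

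Both receptor classes were higher in the members. Trac, the constant region of the alpha chain, had 43 and 126 counts, a log2 ratio of 1.57 (1.04 to 2.08), and stood at 0, 4.72, 6.07 and 4.73 CPM over parts 1 to 4 of the members against 1.16 to 2.01 in the rest. Trdc, the constant region of the delta chain, had 36 and 113 counts, a log2 ratio of 1.47 (0.89 to 2.02), and was higher in 3 of 4 parts. Trac and Trdc lie in the same locus on chromosome 14, and each had fewer than 50 counts in the members. The gamma chain constant regions followed, Tcrg-C1 at 1.24 (0.80 to 1.66), Tcrg-C2 at 1.10 (0.66 to 1.53) and Tcrg-C4 at 0.70 (0.05 to 1.30). The 2 beta chain constant regions stood at 1.08 (Trbc2, 0.54 to 1.58) and 0.89 (Trbc1, 0.13 to 1.58). Constant regions of 1 chain resemble each other, so how reads were divided among them is uncertain. With a score of only Cd3g and Cd3e all these ratios were smaller. Trac then stood at 0.49, Trdc at 0.15, Tcrg-C1 at 0.87, Tcrg-C2 at 0.46, Tcrg-C4 at 0.21, Trbc2 at 0.40 and Trbc1 at 0.27.

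Summed by class, the alpha and beta constant genes stood at 11.3 against 4.85 CPM, a log2 ratio of 1.22 (0.89 to 1.53). The gamma and delta constant genes stood at 19.4 against 8.78 CPM, a log2 ratio of 1.14 (0.90 to 1.38). The ratios of the 2 classes differ by less than their intervals, so the members did not lean to either class at this depth. By square, 65 members (30.2%) held an alpha or beta count and 101 (47.0%) a gamma or delta count, against 16.9% and 28.2% of the remaining squares. Both classes met in 41 members (19.1%, interval 14.0 to 25) and in 6.62% (5.55 to 7.82) of the rest, and 90 members held neither. Variable segments, which would tell the receptors apart, were almost without counts: the 7 annotated gamma segments had 0 and the 128 alpha segments 10 over all kept squares.

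The list of receptor chains, CD3 and co-receptors and proximal signalling had 29 genes with 20 or more counts outside the score. Past 1.5-fold, 16 were higher and 1 lower, with a median log2 ratio of 0.70 (0.21 to 1.10, exact binomial interval of the median). Over all 19038 genes with 20 or more counts, the shares were 4.06% higher and 19% lower, and the counts of every list below stand against these shares. Cd6, a T cell co-receptor, stood at 1.47 (0.53 to 2.34), and Lat, the membrane adaptor that carries the receptor signal, at 1.16 (0.48 to 1.80). With a score of only Cd3g and Cd3e, Cd6 stood at 0.34 and Lat at 0.71. Lat was higher in members in each of 4 parts, at 2.04 to 3.03 CPM against 0.582 to 2.01. Zap70, the kinase bound to the receptor, stood at 1.07 (0.31 to 1.77), but at -0.19 with squares of 40 units. Lck, the kinase of the co-receptors, stood at 0.67 (0.16 to 1.14), and Gimap3, a GTPase of lymphocyte survival, at 0.92 (0.46 to 1.37).

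**Figure D2:**
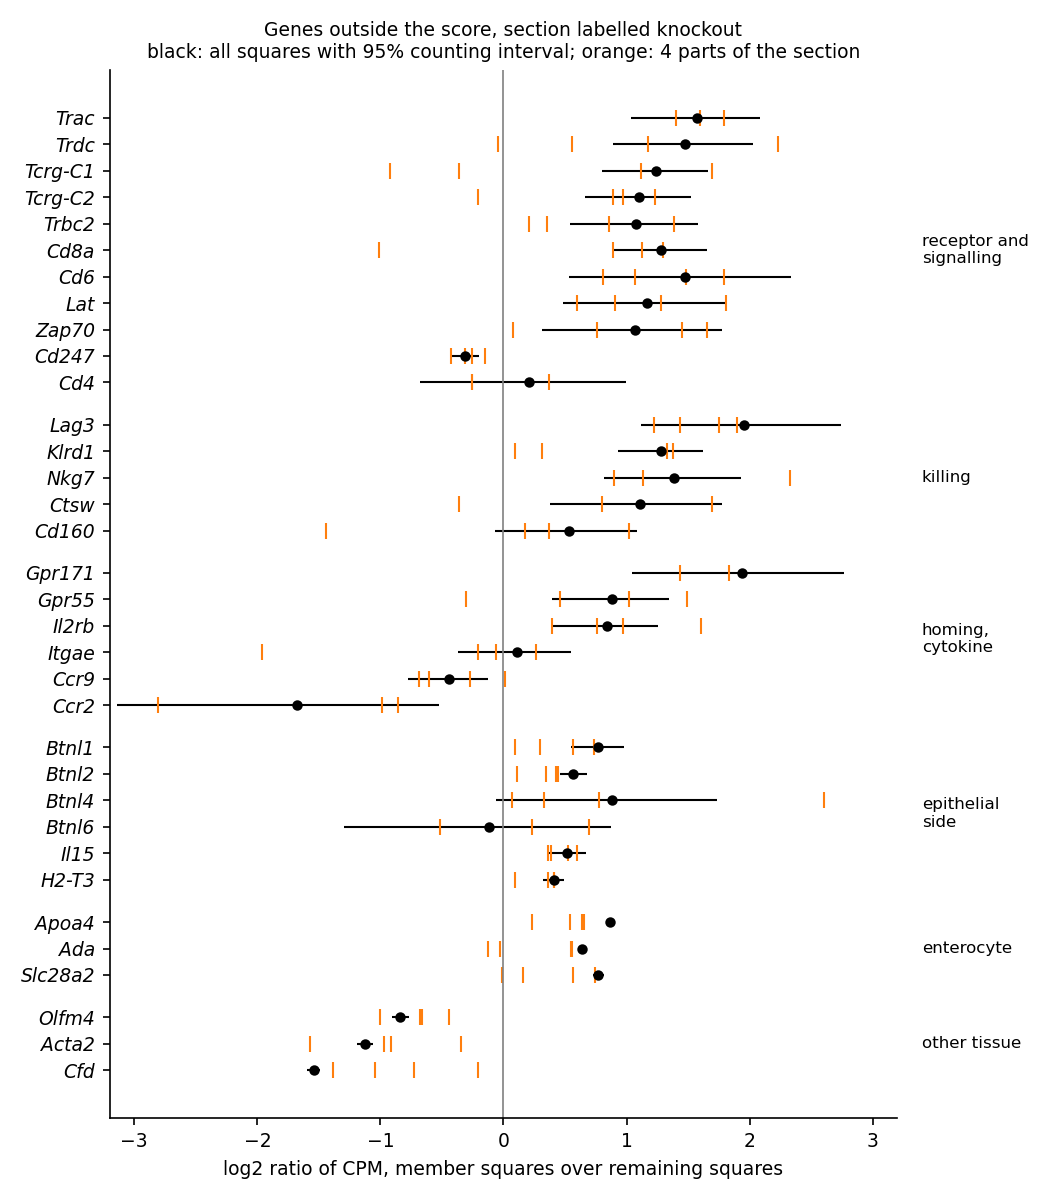
Log2 ratios of CPM, members over remaining squares of the section labelled knockout, for genes outside the score. Black points are all squares with 95% counting intervals and orange ticks the 4 parts (a part with 0 counts on either side has no tick). Receptor and killing genes lie mostly to the right of 0 with wide intervals, and Apoa4, Btnl1 and Btnl2 to the right with narrower ones. Btnl6 lies just left of 0 with a wide interval that holds 0, and Acta2 and Cfd lie to the left.

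Some members of the same list did not follow. Cd247, the zeta chain, was the most abundant gene of the list with 728 and 7872 counts, stood at 78.9 against 97.9 CPM, a log2 ratio of -0.31 (-0.42 to -0.20), and was lower in all 4 parts. Fyn, a kinase also found outside lymphocytes, stood at -0.60 (-1.09 to -0.15). Because Cd247 outweighs the others, the summed list differed little, 188 against 172 CPM, and was higher in only 2 of the 4 parts. The 29 genes therefore give a median and a sum that say different things, and 48.8% of members exceeded the section's median share of the summed list.

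Promoters of 3 of these genes are shown because their genes were higher together in the members. RefSeq (GRCm38.p6) gave a promoter for 13 of the 28 T cell genes named by the rule and at least 1.5-fold higher, and 8 of these had a single start site and 100 or more counts. The 250 bases before the start site are printed 5′ to 3′ on the gene's strand, for Nkg7 (granule protein of killer cells, chr7:43436888-43437137, plus strand), Cd8a (chr6:71373177-71373426, plus strand) and Gpr55 (lipid receptor of gamma-delta cells of the epithelium, chr1:85961056-85961305, minus strand). Capitals mark matches on either strand to TGTGGT (a core bound by RUNX factors), AGGAAG (a core bound by ETS factors) and AGGTGTGA (a core bound by T-box factors).

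Nkg7: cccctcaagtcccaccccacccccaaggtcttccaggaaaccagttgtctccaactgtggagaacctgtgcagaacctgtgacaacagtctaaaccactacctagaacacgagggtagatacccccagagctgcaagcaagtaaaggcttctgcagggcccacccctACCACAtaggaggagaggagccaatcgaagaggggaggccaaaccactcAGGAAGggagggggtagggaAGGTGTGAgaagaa

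Cd8a: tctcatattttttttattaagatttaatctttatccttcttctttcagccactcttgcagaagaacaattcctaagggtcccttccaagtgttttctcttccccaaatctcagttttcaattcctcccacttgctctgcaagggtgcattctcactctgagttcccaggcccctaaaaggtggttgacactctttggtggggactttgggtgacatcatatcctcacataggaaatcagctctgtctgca

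Gpr55: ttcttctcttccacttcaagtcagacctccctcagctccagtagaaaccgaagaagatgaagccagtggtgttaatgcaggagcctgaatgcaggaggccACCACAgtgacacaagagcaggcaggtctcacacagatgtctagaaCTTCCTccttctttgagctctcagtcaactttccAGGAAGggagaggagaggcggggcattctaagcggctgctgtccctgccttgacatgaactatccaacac

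The RUNX core was found in 4 of the 8 promoters and in 14.0% of all 32851 RefSeq promoter windows of this length, the ETS core in 6 of 8 and 29.5%, and the T-box letters in 2 of 8 and 1.12%. In Nkg7 the matches begin 83, 34 and 14 bases before the start, and in Gpr55 the RUNX core begins 150 and the ETS cores 104 and 70 bases before it. The window of Cd8a holds none of the 3. These matches are letters in a window and were not read as binding sites.

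Genes of killing were a mixed group. Of 27 with 20 or more counts outside the score, 11 were at least 1.5-fold higher and 1 lower, with a median log2 ratio of 0.23 (-0.03 to 0.93). With squares chosen on every second barcode and measured on the others the median was -0.10. Lag3, an inhibitory receptor of activated T cells, had 20 and 45 counts and the highest ratio, 1.95 (1.11 to 2.74). It stood at 1.02, 1.18, 2.36 and 2.48 CPM over parts 1 to 4 of the members and at 0.437 to 0.735 in the rest, so its part values did not overlap. Nkg7, a granule membrane protein needed for killing, stood at 4.01 against 1.53 CPM, a log2 ratio of 1.39 (0.82 to 1.93). It was higher in 3 of 4 parts. With a score of only Cd3g and Cd3e, Lag3 stood at 0.26 and Nkg7 at 1.07. Ctsw, a protease of cytotoxic cells, stood at 1.11 (0.38 to 1.78) and Ccl4, a chemokine of activated T cells, at 0.76 (0.23 to 1.25). Both turned: on barcodes that did not choose the squares Ctsw stood at -0.35 and Ccl4 at -0.21, with a score of Cd3g and Cd3e Ctsw stood at -0.10, and with squares of 40 units Ccl4 stood at -0.039.

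Other killing genes were level or lower. Cd160, a receptor known from T cells of the epithelium, stood at 0.53 (-0.07 to 1.08) and Gzmm, a further granzyme, at 0.23 (-0.63 to 0.99), with intervals that hold 0. Ctla4, an inhibitory receptor of activated and regulatory T cells, was lower, at 17.0 against 26.7 CPM, a log2 ratio of -0.65 (-0.89 to -0.42), in all 4 parts. Tyrobp and Fcer1g, signalling adaptors of natural killer and myeloid cells, stood at 0.34 (-0.11 to 0.77) and 0.22 (-0.07 to 0.51).

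Genes of homing gave no common direction. The list had 28 measured genes, 5 at least 1.5-fold higher and 4 lower, with a median of 0.02 (-0.28 to 0.24), and the share that was lower lay under the 19% over all genes. Itgae, the CD103 integrin chain that binds E-cadherin on epithelium, stood at 4.98 against 4.63 CPM, 0.11 (-0.37 to 0.55), and its partner Itgb7 at 0.38 (-0.34 to 1.03). Ccr9, the gut homing receptor, stood at -0.44 (-0.78 to -0.13), and its ligand Ccl25 at -0.06 (-0.11 to -0.01). Ccr2, a receptor of monocytes and recruited T cells, had 6 and 167 counts, a log2 ratio of -1.68 (-3.14 to -0.52). Klf2, a factor of circulating T cells and of endothelium, stood at -0.50 (-0.75 to -0.25), lower in 4 of 4 parts. With a score of Cd3g and Cd3e, Klf2 stood at 0.026 and Ccr9 at 0.19.

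Gpr171, a receptor of T cells, had 18 and 41 counts and stood at 1.93 (1.05 to 2.77), but at 0.21 with squares of 40 units. Gpr55 stood at 4.98 against 2.70 CPM, 0.88 (0.39 to 1.35). Cxcl16, a chemokine displayed on epithelium, stood at 84.1 against 65.5 CPM, 0.36 (0.25 to 0.47). The receptors rest on few counts and the chemokine on many, which their intervals show.

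In the interleukin 15 group the cytokine and the shared receptor chain were higher. Il15 stood at 44.9, 35.4, 38.1 and 46.0 CPM over parts 1 to 4 of the members and at 29.6, 27.1, 29.6 and 32.0 in the rest, without overlap, a log2 ratio of 0.52 (0.36 to 0.67). Il2rb, the receptor chain through which interleukin 15 signals, stood at 6.17 against 3.45 CPM, 0.84 (0.40 to 1.26), higher in 4 of 4 parts. Il15ra, which presents the cytokine, showed no detectable difference at this depth, at -0.21 (-0.56 to 0.13). Over the 26 measured genes of the list, 4 were at least 1.5-fold higher and 3 lower, with a median of 0.18 (-0.12 to 0.38). Shares over all genes with 20 or more counts were 4.06% higher and 19% lower.

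Transcription factors of T cells and innate lymphocytes gave no common direction, with a median of 0.01 (-0.23 to 0.31). Of 24, 3 were at least 1.5-fold higher and 3 lower, against 4.06% and 19% of all genes with 20 or more counts. Prdm1, a factor of tissue-resident T cells that villus enterocytes also express, stood at 0.58 (0.22 to 0.92). Tbx21, a factor of cytotoxic cells, had 10 counts in members and stood at 0.31 (-0.81 to 1.28). Zeb2, a factor of effector T cells, macrophages and mesenchyme, stood at -0.73 (-1.01 to -0.45), and Bcl11b, a factor of T cell identity, at -0.40 (-0.64 to -0.17).

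Lpar3 and Tnfrsf23, also among the 8 highest ratios, were on no list. Lpar3, a receptor for lysophosphatidic acid, stood at 5.63 against 2.71 CPM, 1.05 (0.59 to 1.5), and Tnfrsf23, a decoy receptor of the tumour necrosis factor family, at 8.23 against 4.13 CPM, 1.0 (0.62 to 1.36). Each was higher in 4 of 4 parts. Ltb, a lymphotoxin made by lymphocytes, stood at 1.01 (0.46 to 1.53), but at -0.30 on barcodes that did not choose the squares and at -0.060 with the grid moved.

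Molecules on the epithelial side that T cells recognise gave no common direction. Over the 23 measured genes of the list the median was 0.01 (-0.30 to 0.41), with 2 at least 1.5-fold higher and 4 lower. Among all genes with 20 or more counts, 4.06% were higher and 19% lower. Btnl1 (chr17:34377123-34386162), a butyrophilin-like protein that maintains gamma-delta cells, stood at 12.2, 13, 26.0 and 26.8 CPM over parts 1 to 4 of the members and at 11.5, 10.6, 15.6 and 18.1 in the rest. Pooled, this was 23.7 against 13.9 CPM, a log2 ratio of 0.77 (0.55 to 0.98). Members were higher in each part, least in parts 1 and 2, and the ranges overlapped. Btnl2, its neighbour on chromosome 17, stood at 86.4 against 58.3 CPM, 0.57 (0.46 to 0.68), higher in 4 of 4 parts. Btnl6, the usual partner of Btnl1, had 9 and 85 counts, -0.12 (-1.29 to 0.88), too few to show a difference of this size.

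The nonclassical MHC genes of the list differed among themselves. H2-T3, which encodes thymus leukaemia antigen, stood at 138 against 104 CPM, 0.41 (0.32 to 0.50). H2-Q2 stood at 838 against 601 CPM, 0.48 (0.44 to 0.51), H2-Q1 at 0.43 (0.36 to 0.50) and H2-Bl at 0.55 (0.41 to 0.68), each higher in 4 of 4 parts, and none of these 4 genes passed 1.5-fold. Past 1.5-fold downwards, H2-M3, which presents bacterial formyl peptides, stood at -0.78 (-1.61 to -0.05), Cd1d1, which presents lipids to natural killer T cells, at -0.67 (-1.23 to -0.16), and H2-Q10 at -0.61 (-1.0 to -0.25). With squares of 40 units H2-M3 stood at -0.03. The sum of the list, set by its abundant genes, was 1770 against 1399 CPM. The related MHC genes resemble each other, so their separate values are uncertain.

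Enterocyte genes were higher as a group. All 26 measured genes of the list were above 0, 1 of them past 1.5-fold, with a median of 0.39 (0.27 to 0.44). Their sum was 56128 against 41054 CPM, and 44207 to 61404 CPM over the 4 parts of the members against 35502 to 46817 in the rest. Of the members, 78.1% exceeded the section's median enterocyte share, 108 lay in its top 25% and 19 in its bottom 25%. Apoa4, an apolipoprotein of villus enterocytes, ran from 953 to 40805 CPM over member squares with a median of 7442, against a median of 3640 in the rest. Pooled it stood at 10154 against 5559 CPM, 0.87 (0.86 to 0.88), and was higher in each part. The pooled ratio lies above that of every single part, because members are concentrated in parts 3 and 4, where Apoa4 is higher in all squares. Combined within the 4 parts, the log2 ratio was 0.62 for Apoa4, 0.57 for Btnl1, 0.41 for Btnl2 and 0.47 for Ada, against 1.2 for Klrd1, 1.12 for Cd8a and 1.40 for Trac.

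Lists of genes placed higher on the villus had higher medians. The median of the villus tip list was 0.50 (0.24 to 0.77) and 5 of its 14 genes passed 1.5-fold upwards, the middle list stood at 0.28 (0.17 to 0.34) over 10 genes, and the bottom list at -0.09 (-0.52 to 0.19) over 12. The intervals of neighbouring lists overlap, and those of tip and bottom do not. Slc28a2, a nucleoside transporter of the tip, stood at 506 against 296 CPM, 0.77 (0.72 to 0.82), and Ada, adenosine deaminase, at 2030.3 against 1303 CPM, 0.64 (0.62 to 0.66), though Ada was higher in only 2 of 4 parts. Apobec1, which edits the Apob transcript, stood at 0.87 (0.59 to 1.15), and Tmprss15, the enteropeptidase of the brush border, at 103 against 55.2 CPM, 0.89 (0.79 to 1.0).

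**Figure D3:**
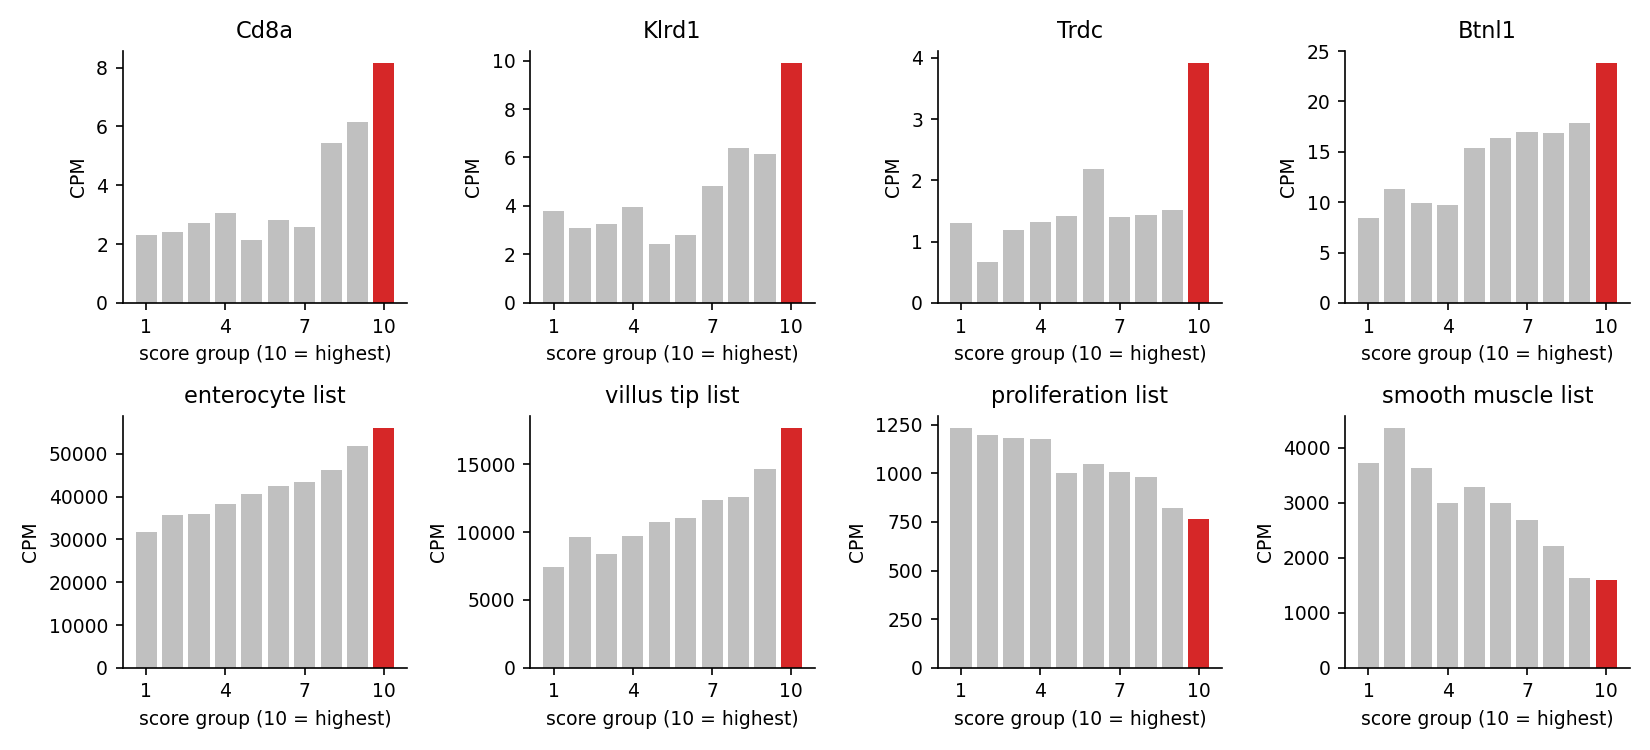
CPM of 4 genes and 4 lists (y axis, from 0) in 10 groups of the kept squares ordered by score (x axis, group 10 highest), section labelled knockout, where the red bar is the top group of 214 squares. Cd8a and Klrd1 are highest in groups 8 to 10 and Trdc in group 10, while the enterocyte list is higher in each group than in the one before and the smooth muscle list is lowest at the high end.

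In the same order of squares, Trdc, Cd8a and the enterocyte list were each highest in the top group, along different courses. Trdc lay between 0.672 and 2.18 CPM in groups 1 to 9 and at 3.92 in the top. Cd8a stood at 2.32 CPM in group 1, 2.58 in group 7, 5.45 in group 8 and 8.17 in the top. The enterocyte list, by contrast, was higher in each group than in the one before, from 31623 CPM in group 1 to 42424 in group 6 and 56085 in the top. The summed receptor list did not rise steadily, at 180 CPM in group 1, 164 in group 5 and 188 in the top. The summed killing list stood at 119 CPM in group 1 and 116 in the top. The groups were ordered by the score that chose the members, so these values are a description.

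Most antigen presentation and interferon genes stayed within 1.5-fold. Of 16 MHC class I genes none passed 1.5-fold either way and 13 were above 0. Their median was 0.19 (0.04 to 0.25), and 0.03 among enterocyte-rich squares. B2m, the light chain, stood at 3715 against 2801 CPM. The class II list had a median of 0.34 (-0.30 to 0.53) over 10 genes, and Cd74, the invariant chain, stood at 213 against 160 CPM, 0.41 (0.34 to 0.48). Past 1.5-fold, 4 of 33 interferon response genes were higher and 1 lower, median 0.21 (-0.11 to 0.38). Among the 4 were Ido1, which degrades tryptophan, at 0.71 (0.52 to 0.90), and Zbp1, a sensor of nucleic acids, at 0.65 (0.55 to 0.75). Of all genes with 20 or more counts, 4.06% were higher and 19% lower. The summed interferon list stood at 2584 against 1876 CPM, higher in 4 of 4 parts.

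Crypt genes were lower in the members. All 30 genes of the proliferation list were below 0, with a median of -0.53 (-0.58 to -0.44). Past 1.5-fold, 8 of the 30 were lower, against 19% of all genes with 20 or more counts. Ccna2, cyclin A2, stood at 44.7 against 71.7 CPM. Of the crypt base list, 6 of 14 were at least 1.5-fold lower and none higher, median -0.44 (-0.89 to -0.15). Olfm4, a marker of crypt base cells, stood at 263, 230, 220 and 148 CPM over parts 1 to 4 of the members and at 358, 364, 353 and 296 in the rest, without overlap, -0.84 (-0.91 to -0.77). Smoc2, a further crypt base gene, stood at -0.98 (-1.14 to -0.83). Of 14 Paneth cell genes 10 were at least 1.5-fold lower, median -0.74 (-0.91 to -0.28), with Defa24, a defensin, at 1865 against 2820.5 CPM.

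Genes of the gut wall were lower in the members. Of 14 smooth muscle genes 13 were at least 1.5-fold lower and none was above 0, median -1.03 (-1.13 to -0.92). Acta2, smooth muscle actin, stood at 264, 289, 247 and 161 CPM over parts 1 to 4 of the members and at 336, 565, 466 and 478 in the rest, without overlap, -1.13 (-1.19 to -1.06). Stromal genes had a median of -0.75 (-0.95 to -0.43), 10 of 14 past 1.5-fold, and enteric neuron and glia genes one of -0.93 (-1.25 to -0.84), 11 of 12 past it. The 14 vessel genes had a median of -0.46 (-0.69 to -0.05). Among enterocyte-rich squares it turned to 0.11.

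Of 10 fat cell genes 7 were at least 1.5-fold lower, median -1.55 (-1.71 to -0.14). This was -0.94 without part 2 and -0.45 with a score of Cd3g and Cd3e, and the summed list had a median over squares of 537 CPM in members and 586 in the rest. Cfd, adipsin, stood at 318 against 925 CPM, but this depended on position: 252, 1096, 191 and 268 CPM over parts 1 to 4 of the members against 418, 2264, 221 and 702 in the rest. Combined within the 4 parts the log2 ratio was -1.05, against -1.54 pooled. Members were lower in every part, and part 2 was far above the others in both sets. The lowest single ratio by the naming rule was that of Snhg11, a noncoding RNA known from neurons, with 6 and 311 counts, -2.57 (-4.03 to -1.44).

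Markers of other immune cells differed by list. Of 7 measured B cell genes 1 was at least 1.5-fold higher, median -0.10 (-0.27 to 0.98), and the summed list was 19.0 CPM in members and 20.2 in the rest. The plasma cell list stood at a median of 0.11 (0.02 to 0.49), and Igha, the heavy chain of IgA, at 1415 against 1121 CPM. On barcodes that did not choose the squares, Igha stood at a log2 ratio of 0.03 and the summed plasma cell list at 1981.5 against 1962.5 CPM. Over single squares, the median of that summed list was 1319 CPM in members and 1400 in the rest. Macrophage and dendritic cell genes had a median of -0.04 (-0.29 to 0.38) over 19 and neutrophil genes one of 0.31 (0.06 to 0.58) over 9, from a summed 29.6 against 24.4 CPM. The neutrophil median lay below 0 in 4 of 23 alternatives, at -0.35 with squares of 40 units and with a score of Cd3g and Cd3e, -0.14 with the top 5% of squares and -0.10 with the top 20%. Innate lymphoid genes had a median of 0.43 (-0.01 to 1.01) over the 9 of 18 that were measured, a summed 130 against 96.5 CPM, higher in 4 of 4 parts, and Il17a held 0 counts. On barcodes that did not choose the squares this median was -0.11, and with squares of 10 units -0.0073. The part of these cells in the T cell genes was not tested.

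Of the secretory epithelium, the goblet list stood at a median of 0.11 (-0.16 to 0.46) but a sum of 9143 against 7030 CPM, to which Zg16, a lectin of mucus, gave 4304 and 3145 CPM. The tuft list stood at -0.06 (-0.33 to 0.37) and enteroendocrine genes 0.14 (-0.22 to 0.45), where Tac1, a tachykinin, was lower at -0.99 (-1.31 to -0.68) and Gip, an incretin, higher at 0.60 (0.50 to 0.69). Of 23 p53 target and cell death genes none passed 1.5-fold either way, median 0.06 (-0.07 to 0.21), and Cdkn1a, the p21 inhibitor, stood at 217 against 177 CPM. Genes of regenerating epithelium had a median of 0.07 (-0.25 to 0.30). Dpf2 stood at 24.8 CPM in members and 26.1 in the rest, -0.08 (-0.28 to 0.12).

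The members were not alike, and Cd8a and Klrd1 stood highest in those rich in enterocytes. In the top 25% of squares by enterocyte share, 108 members stood at 10.3 CPM of Cd8a against 4.69 in the 430 remaining squares of that range, and at 11.7 against 4.94 CPM of Klrd1. In the bottom 25%, 19 members with 618943 counts stood at 1.62 against 1.98 CPM of Cd8a and 3.23 against 2.79 of Klrd1, resting on 1 and 2 counts. Trac was highest in members of the third 25%, at 5.61 CPM against 5.26 in the top, and Trdc in those of the second, at 4.96 against 3.89, on 15 counts or fewer in each of these lower ranges. In the second 25% the members lay below the rest for Klrd1, 2.48 against 3.73 CPM, and Trac, 1.24 against 1.86, on 2 counts and 1. The members scored 187 CPM in the bottom 25% and 217 CPM in the top 25%. In the bottom 25% the members carried 4572 CPM of smooth muscle genes and 9920 of Paneth cell genes, against 964 and 2622 in the top 25%. The alpha and beta constant genes stood at 9.69 against 4.06 CPM in the bottom 25% and at 12.3 against 6.11 in the top. At 1 and 2 counts a difference of Cd8a or Klrd1 in these 19 squares was not detectable.

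T cell genes were also higher when only enterocyte-rich squares were compared, which were not matched further by epithelial content. Among the 1075 squares with an enterocyte share at or above the section's median, 169 were members, and Cd8a stood at a log2 ratio of 1.07, Klrd1 at 1.18, Trac at 1.75, Trdc at 1.18 and Nkg7 at 1.18. The receptor list kept a median of 0.70 and the killing list had 0.49. The epithelial molecules were closer to the rest there: Btnl1 stood at 0.41, Btnl2 at 0.25, H2-T3 at 0.18, Il15 at 0.21 and Apoa4 at 0.42. Acta2 stood at -0.37 and Olfm4 at -0.33. Tissue lists that were lower over all squares were nearer to 0 there, with medians of -0.32 for smooth muscle, -0.25 for neurons and glia, -0.14 for proliferation, -0.11 for Paneth cells and -0.05 for stroma. The villus tip list stood at 0.16, and the enterocyte list, which set the range, at 0.06.

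Squares next to a member lay between the members and the farther squares for the enterocyte list and, by value, for most T cell genes examined. The 543 squares that share a side with a member stood at 49136 CPM of the enterocyte list, against 56128 in members and 37814 in the 1391 farther squares. For Trac they stood at 1.61 CPM (Poisson interval 1.13 to 2.22) against 4.66 (3.37 to 6.27) in members and 1.55 (1.25 to 1.91) farther away. For Cd8a they stood at 4.65 CPM (3.81 to 5.62), against 8.12 (6.39 to 10.2) and 2.82 (2.40 to 3.29), and for Btnl1 at 18.6 CPM (16.8 to 20.4), against 23.7 and 12.1. Trdc stood at 1.87 CPM in adjoining and 1.22 in farther squares, Tcrg-C1 at 3.43 and 2.40, Nkg7 at 1.96 and 1.36 and Klrd1 at 4.78 and 3.82, against 3.90, 6.39, 4.01 and 9.96 in members. Between adjoining and farther squares the Poisson intervals of these 4 genes and of Trac overlapped, and those of Cd8a and Btnl1 did not.

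Within the members, the receptor and killing lists stood higher on the barcodes that carried the score. The 1453 barcodes of member squares with a count of the 6 genes had 241 CPM (220 to 264) of the receptor list and 154 CPM (137 to 172) of the killing list. The 6920 other barcodes of the same squares had 174 (164 to 183) and 106 (98.7 to 114), close to the 171 and 109 CPM of barcodes without such a count in the remaining squares. Their enterocyte list was 55143 CPM, against 40597 outside the members. In the remaining squares, the 4250 barcodes with a count of the 6 genes had 187 CPM (176 to 199) of the receptor list. Their killing list stood at 106 CPM (97.4 to 115), not above the 109 CPM of barcodes without such a count there.

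A separate choice gives the values of the 6 genes in counts that did not select the squares. Squares were chosen on every second barcode and measured on the others. Of 215 squares so chosen, 125 (58.1%) were members on all barcodes. On the barcodes not used, the 6 genes summed to 131 against 66.6 CPM, a log2 ratio of 0.98 (0.85 to 1.10), against 1.84 where all barcodes chose and were measured. Gzmb stood at 1.42 (0.99 to 1.84), Cd7 at 1.80 (1.19 to 2.39) and Gzma at 0.94 (0.76 to 1.12), while Cd3g, at 0.39 (-0.01 to 0.77), and Cd3e, at 0.55 (-0.10 to 1.15), were not detectably higher. Of the genes outside the score, Trac stood at 1.45, Cd8a at 1.21, Klrd1 at 1.01, Trdc at 0.88, Nkg7 at 0.76 and Ctsw at -0.35.

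Under the same rule, B cell and receptor lists both had medians above 0 in the section labelled wild type. There 132 of 1316 kept squares were taken, on 863 counts of the 6 genes in all, and the last of them scored 69.0 CPM. Over the section the 6 genes gave 21.8 CPM, against 72.2 in the section labelled knockout, and 23 squares (1.75%) reached the threshold of the latter. Of the 132 squares, 77 held only 1 of the 6 genes. Of 13 B cell genes 12 were at least 1.5-fold higher, median 1.78 (1.5 to 2.05), and the receptor list had an overlapping median of 1.57 (1.15 to 2.30). The summed B cell list was higher in only 2 of 4 parts and the receptor list in 4. Ccl21a, a chemokine of lymphoid tissue, stood at 2.56 with 277 and 531 counts, against -0.89 in the section labelled knockout, where it was -0.02 among enterocyte-rich squares.

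Side by side, receptor genes past 1.5-fold upwards were 16 of 29 here and 21 of 26 in the section labelled wild type, where 884 of 13433 genes (6.58%) were higher and 305 (2.27%) lower, and 11.7% were higher among genes with 20 or more counts. Trdc had 3 and 22 counts there, 0.63, and Tcrg-C1 1 and 13, -0.20, too few counts to compare. Cd8a had 9 and 14 counts, 2.86. Smooth muscle genes had a median of -0.25 there and of -1.03 in the section labelled knockout, and proliferation genes -0.02 and -0.53. The enterocyte list summed to 329 to 1419 CPM over the parts of the remaining squares there, against 35502 to 46817 in the section labelled knockout. Genotype, section, gut stretch and depth cannot be told apart in these differences, which were not tested.

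**Figure D4:**
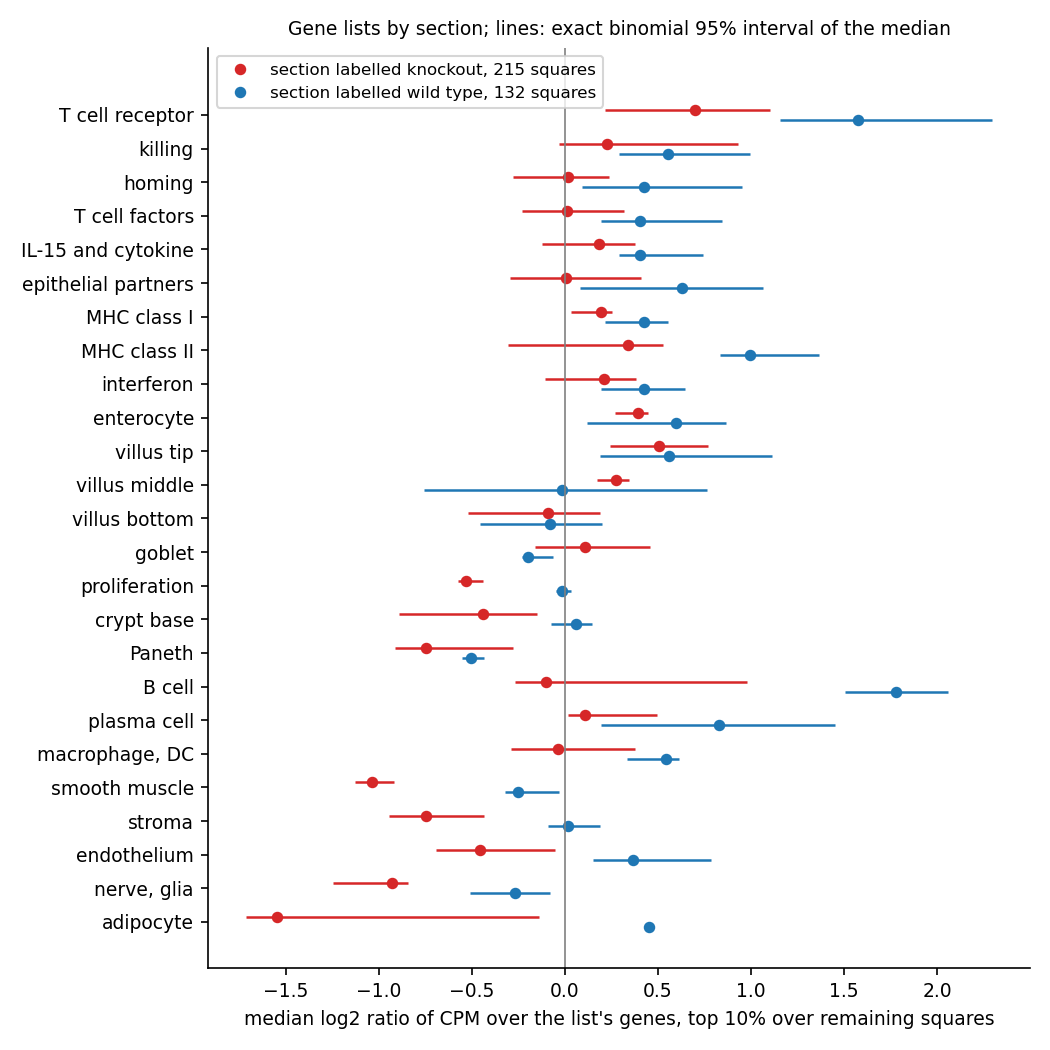
Median log2 ratio (x axis) of the genes of each list (y axis), top 10% of squares by score over the remaining squares, in the section labelled knockout (red, 215 squares) and in that labelled wild type (blue, 132 squares), with the exact binomial interval of the median where 6 or more genes were measured. The B cell, vessel and MHC class II lists lie apart between sections, and the smooth muscle, stroma and proliferation lists are lower in red.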

How the data were processed

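Each of 2 sections of irradiated mouse intestine gave a matrix of genes by barcodes with barcode positions. Each deposited matrix holds whole-number counts, which the authors had not normalized as far as the values show. Barcodes under tissue were selected by the authors from aligned images, per the labels' protocols. The genome build is GRCm38, per the submitters' processing notes. Nothing is given in the sources used here on aligner, counter, strand, handling of molecular identifiers or the length of a position unit. Features number 54752 and distinct symbols 54658, and counts of a repeated symbol were added. The 2041 genes of chromosome X hold 0 counts in both sections and were not analysed here. The sections share 45557 barcode names, which name array positions.

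Counts were summed per square, and CPM are counts per 1000000 counts summed over a set of squares. Genes and gene lists carry ratios of CPM, with a 95% exact binomial (Clopper-Pearson) interval. CPM carry exact Poisson intervals and list medians an exact binomial interval over genes with 20 or more counts. A gene with 0 counts on 1 side entered a list median at a floor of 3 counts per set of squares. Intervals and floors cover counting error only, and neighbouring squares are not independent. No test was made, because each group has 1 section. The members and the 34 gene lists were chosen with earlier results of these data known.

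Genes were named by rule: the 25 highest and 15 lowest ratios among genes with 200 or more counts, members with 50 or more counts of the T cell and epithelial partner lists, and up to 4 extreme and 2 most abundant members of other lists. The rule leaves out the 6 genes of the score, predicted and ribosomal protein genes, receptor and immunoglobulin segments and haemoglobins. Il17a was named after its counts were seen. The calculation of the ratios was checked on simulated Poisson counts. These hold no clustering of squares, so they do not bear on whether the intervals are wide enough for real squares. Alternatives covered the grid, the thresholds, the genes of the score, the barcodes used, the epithelial share, the averaging and the parts of the section. Python 3.11.15, numpy 2.4.6, scipy 1.17.1, pandas 2.3.3 and matplotlib 3.10.9 were used.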

Additional observations from a re-analysis of the deposited data

Results flagged for a closer look

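5 results stood on opposite sides of 0 in the 2 sections, each with a counting interval (for the list, an interval of the median) that leaves out 0 and, for single genes, a ratio of at least 1.5-fold. The differences were not tested. The vessel list had a median log2 ratio of -0.46 in the section labelled knockout and 0.36 in that labelled wild type. Ccl21a, a chemokine of lymphoid tissue and lymph vessels, stood at -0.89 and 2.56. H2-M3 stood at -0.78 and 0.66, and Cd1d1 at -0.67 and 1.0. Hotairm1, a noncoding RNA of the HoxA cluster, stood at -2.51, with 5 and 248 counts, and at 0.61. Among squares of the section labelled knockout with an enterocyte share at or above the median, the vessel median was 0.11, on the side of the other section, Ccl21a stood at -0.02 and Cd1d1 at -0.22. H2-M3 stood at -0.03 with squares of 40 units.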

How the results depend on the processing

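Over 26 alternatives, genes at least 1.5-fold higher numbered 465 with squares of 40 units, 421 and 131 with the top 5% and 20% of squares, 111 with a score of Cd3g and Cd3e, 117 among enterocyte-rich squares, 151 within the 4 parts (added after seeing the data), 773 and 95 at gene minimums of 20 and 500, and 27 at 2-fold. Genes lower numbered 3324 with the top 5%, 921 with Cd3g and Cd3e, 269 among enterocyte-rich squares, 3617 and 851 at the gene minimums, and 611 at 2-fold. The adjoining share was 14.6% and 29.2% with sides of 10 and 40, 23.6% with the grid moved, 10.2% and 32.4% with the top 5% and 20%, 15.9% with Gzma and Gzmb, and 12.6% with Cd3g and Cd3e. The killing median was -0.10 when even barcodes chose and odd were measured. Single genes turned: Zap70 (-0.19, side 40), Ccl4 (-0.039, side 40, and -0.21, even and odd barcodes), Ltb (-0.060, grid moved, and -0.30, even and odd), and Ctsw (-0.10, Cd3g and Cd3e, and -0.35, even and odd). The vessel median turned to 0.11 among enterocyte-rich squares and the innate lymphoid median to -0.11 with even and odd barcodes. The cause was not tested. Leaving out each part of the section in turn gave 179 to 258 genes higher and 1473 to 2319 lower, and the receptor median stayed between 0.31 and 0.87 over its 23 alternatives. No paired analysis was possible because each group has 1 section. Depth limits single genes, with 92 member counts of Klrd1, 75 of Cd8a, 18 of Gpr171 and 6 of Ccr2.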
